A study of Canis lupus familiaris with 55 samples.

Results

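The interval from 30 to 40 Mb of canine chromosome 13 (CFA13, genome build CanFam3) held 128 annotated loci of the guided transcript assembly, and 85 of them had a mean of at least 1 FPKM (fragments mapped to a locus, scaled to its transcript length and to the size of the library) over the 55 libraries of embryonic gonads. These 85 genes are described here, out of 12723 annotated loci that passed the same threshold in the whole genome. The interval was chosen by the measured FPKM themselves, because many of its genes were lower in the pedigree with XX disorder of sex development (XX DSD) than in controls. Differences between pedigree and control are therefore given as a description, in XX and in XY gonads, without a p-value for any gene, and p-values of single genes are kept for XX against XY gonads, which the choice did not use.

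In XX DSD, SRY-negative dogs develop testes or ovotestes. The at-risk embryos (XX DSD at risk) and their XY littermates, which form testes, came from a model pedigree of mixed American cocker spaniel and beagle descent, and by the study's methods both carried 1 or 2 copies of a guanine insertion on CFA9 that marks the affected haplotype. Controls were XX and XY embryos of wild type beagle parents. The insertion lies on another chromosome than the genes described here. A library stood for 1 embryo and its gonad pair. Only at gestational day 34 (d34) were controls pooled, with 6 XX and 7 XY embryos in 1 library each. There were 9 XX DSD at risk and 4 XY littermate embryos at d35, 8 and 5 at d37-39, and 6 and 3 at d41-44. Controls numbered 6 XX and 6 XY at d37-39, and 3 XX and 3 XY at d44. In the older comparison every control was of d44 and of 1 litter, whereas pedigree embryos were labelled d41 to d44, so age, litter and breed background cannot be told apart there from the pedigree. By the study's methods control libraries and XX DSD libraries went into separate sequencing pools, so that the pool cannot be told apart from the pedigree either.

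Most of the 85 genes belong to a crowded block near 37 Mb that holds housekeeping genes of many kinds, among them subunits of the ribosome, the respiratory chain, the splicing and polyadenylation machinery and the exosome. The human counterparts of these genes are neighbours too. Beyond 38.5 Mb the interval passes into genes whose human counterparts lie together on a different chromosome, while *HYKK*, *IREB2* and *WFS1*, just before them, have human counterparts outside the main block as well. Among the last genes is *SHISA3*, which encodes a membrane protein known to restrain WNT and FGF signalling by holding receptors in the endoplasmic reticulum. WNT signalling started by RSPO1 and WNT4 is known to direct ovary differentiation, and its antagonism favours the testis pathway.

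Of the 85 genes, 72 had a symbol and 13 an identifier alone, and 83 were above 0 in every library. The mean level over all libraries ran from 1.09 FPKM for *ENSCAFG00000032288* to 1453 FPKM for *RPL8*, a protein of the large ribosomal subunit, with a median of 10.3 FPKM against 13.05 over all annotated loci of mean FPKM of at least 1. *EEF1D*, a subunit of translation elongation factor 1, was next with 575 FPKM. Just inside the threshold lay *ENSCAFG00000032288* and *ENSCAFG00000001285* (1.46 FPKM), and just outside it *GPIHBP1* (0.586) and *CHRNA5* (0.481). Of the 43 loci under the threshold 12 were at 0 in every library.

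The genes were crowded unevenly: the first 5 Mb of the interval, from 30 to 35 Mb, held 6 of them and the last 5 Mb held 79. A median of 79 annotated loci lay within 1 Mb of a gene of the interval, against 26 for annotated loci at large, and the number was 8 for the first 5 Mb. Another annotated locus overlapped 37 of the 85, on the opposite strand for 35, and 5 were assembled loci that joined more than 1 gene. Since the library kit did not mark strand, reads of genes that overlap on opposite strands cannot be told apart. The assembled locus of *SHARPIN* was 275182 bp long and overlapped 18 other annotated loci, that of *TONSL* and *VPS28* was 176237 bp long and overlapped 11, and *SHISA3* shared a locus of 43148 bp with a U6 RNA gene (called *SHISA3/U6* below).

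Read depth was not used as a count. Relative depth, estimated from the smallest steps of FPKM at weakly expressed loci, was 0.152 to 1 of the deepest library. At d41-44 its median was 0.283 in XX DSD at risk and 0.824 in XX controls (geometric mean ratio 0.363, exact permutation test, two-sided, p = 0.012, the smallest that 6 and 3 libraries allow), and in XY gonads the ratio was 0.529 (exact permutation p = 0.1, the smallest that 3 and 3 allow). At d37-39 the ratios were 0.853 in XX (exact permutation p = 0.5) and 1.25 in XY gonads (exact permutation p = 0.56). Of 5 gonad markers 4 were matched and present in every group, with sums from 142 to 327 FPKM. Of 5 adrenal markers only 2 were matched, and together they did not exceed 4.91 FPKM. In every group other than XY controls of d44, 1 of these 2 was at 0 throughout, so this check is a weak one.

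In XX gonads most genes of the interval were lower in the pedigree at both ages. At d37-39, 43 of 85 were called lower (limma on log2(FPKM + 1), adjusted p under 0.05) and 1 was called higher, where 13% and 9.48% of annotated loci were called lower and higher, and 74 of 85 had a negative change. At d41-44, 71 of 84 tested were called lower and 4 higher, where 40.1% and 25.6% of annotated loci were so called, and 79 had a negative change. The median change was −0.49 at d37-39 and −0.77 at d41-44 on the log2(FPKM + 1) scale, which understates the change of weakly expressed genes, against −0.02 and −0.12 over all annotated loci. At the second age 72 of the 84 genes had every XX DSD library below every XX control library (39.2% of annotated loci), and at the first age 22 of 85 did (6.19%). These counts describe the contrast on which the interval was chosen, and nothing is read from them. With each litter reduced to 1 value (4 pedigree and 2 control litters) no gene was called lower by limma at d37-39, and with libraries scaled to the same median 6 were, with a median change of −0.25. In bulk samples, fewer cells of a type and less RNA per cell cannot be told apart.

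Stringent differences, in which the means differed by 2-fold or more and the higher mean reached 4 FPKM besides, numbered 10 lower genes in XX at d37-39 (1.93% of annotated loci) and 30 at d41-44 (6.08%). Together they were 33 genes, and 7 were stringent at both ages: *ZNF696*, *GPT*, *C8orf82*, *COMMD5*, *C8orf33*, *SHISA3/U6* and *ENSCAFG00000029569*. *GPT* encodes an alanine aminotransferase, *ZNF696* a zinc finger protein and *COMMD5* a COMM domain protein, a family that works in sorting membrane proteins from endosomes. At d37-39 *TSNARE1*, *KIFC2* (a kinesin) and *ENSCAFG00000029172* were stringent too. At d41-44 the list also held *DENND3*, *BAI1*, *THEM6*, *GLI4*, *RHPN1*, *ZC3H3*, *NAPRT1*, *TIGD5*, *GRINA*, *OPLAH*, *SHARPIN*, *CYC1*, *FBXL6/TMEM249*, *CPSF1*, *PPP1R16A*, *MFSD3*, *LRRC24/RECQL4*, *ZNF250* and 5 genes with an identifier alone.

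**Figure D1:**
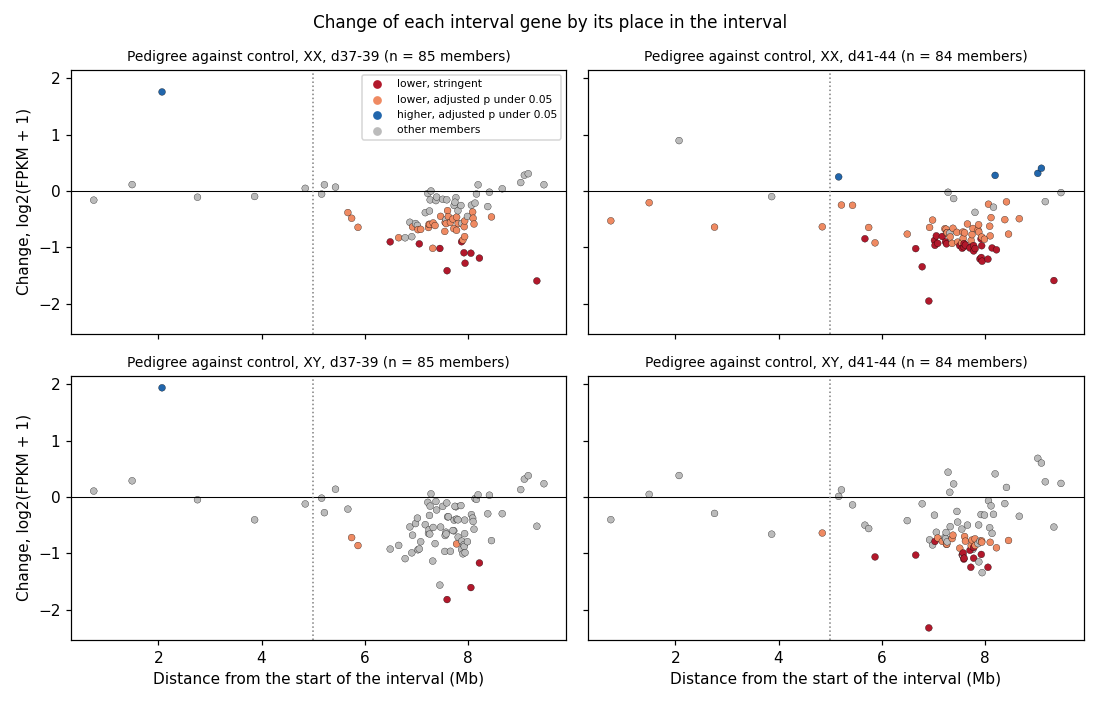
Change of each gene of the interval between DSD pedigree and control, log2(FPKM + 1) (vertical axis), by its distance in Mb from the start of the interval (horizontal axis), in XX and XY gonads at d37-39 and d41-44. The dotted line marks 5 Mb, dark red points are stringent lower genes, orange points called lower, blue points called higher and grey points the rest, and the stringent lower genes lie in the right part of each panel, beyond 5 Mb.

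*CYC1*, cytochrome c1 of respiratory complex III (37590939 to 37593040, plus strand), was the most abundant stringent gene of the interval. At d44 XX controls held 91.48, 99.98 and 95.34 FPKM, and the 6 XX DSD libraries of d41-44 lay between 41.7 and 53.1 with a median of 46.8. In XY gonads the 3 controls held 124, 92.3 and 85.1 FPKM and the 3 littermates 52.5, 53.1 and 34.05. The groups did not overlap in either sex, with changes of −0.99 in XX and −1.10 in XY. At d37-39 they did overlap: XX controls had 76.7 to 99.6 FPKM and XX DSD gonads 51.2 to 98.3, with a change of −0.16.

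*GPAA1*, a subunit of the enzyme complex that attaches GPI anchors to proteins (37577265 to 37582162, plus strand), differed at both ages. XX controls of d37-39 had 58.9, 62.9 and 70.4 FPKM as lowest, median and highest of 6, and the 8 XX DSD libraries 34.7, 39.4 and 58.9. At d44 the XX controls held 67.6, 76.6 and 71.3 FPKM, against 34.8 to 45.7 in XX DSD gonads of d41-44. The changes were −0.58 and −0.84 in XX, and −0.66 and −0.99 in XY gonads, whose littermates held 38.7, 34.1 and 32.2 FPKM at the older age against 87.2, 66.5 and 60.1 in controls. No pedigree library of d41-44 reached a control library of its sex.

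*SHARPIN*, of the complex that builds linear ubiquitin chains, and *CPSF1*, the large subunit of the cleavage and polyadenylation factor, lie in the same block at 37590392 to 37865573 and 37800575 to 37825216 on the minus strand. *SHARPIN* held 46.6, 42.5 and 41.8 FPKM in XX controls of d44 and 17.9 to 26.0 in XX DSD gonads of d41-44 (change −0.998). In XY gonads it held 49.9, 40.1 and 28.2 FPKM in controls and 18.1, 16.8 and 12.5 in littermates (change −1.25). The groups stood apart in both sexes, with the lowest XY control, replicate 3, nearest to its littermates.

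*CPSF1* had 38.08, 41.98 and 38.87 FPKM in XX controls of d44 against 17.0 to 20.4 in XX DSD gonads (change −1.02). XY controls had 30.8, 25.9 and 22.6 FPKM and XY littermates 14.6, 13.2 and 14.2 (change −0.86). At d37-39 the 6 XX controls had 30.1 to 39.7 FPKM and the 8 XX DSD gonads 17.6 to 31.4, so that the highest pedigree library overlapped the lowest control. *ENSCAFG00000001588* (37779789 to 37786786, plus strand) had 41.2, 45.5 and 42.4 FPKM in XX controls of d44 and 17.71 to 24.34 in XX DSD gonads, with changes of −1.07 in XX and −1.09 in XY gonads at that age.

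*COMMD5* (38059046 to 38061411, plus strand) was 1 of 2 genes stringent in both sexes at both ages. XX controls of d37-39 lay between 27.8 and 36.1 FPKM (median 30.6) and XX DSD gonads between 8.81 and 25.7 (median 14.0). In XY gonads of that age controls lay between 19.3 and 43.5 (median 33.9), and littermates held 17.98, 13.99, 6.67, 5.31 and 10.6 FPKM. At the older age the XX controls held 36.1, 33.3 and 33.9 FPKM against 11.8 to 16.8, and the XY controls 40.04, 32.43 and 31.85 against 13.35, 15.73 and 13.05. No control library of either sex or age was reached, and the changes were −1.11, −1.21, −1.61 and −1.25 in XX at d37-39, XX at d41-44, XY at d37-39 and XY at d41-44. The other gene, *ENSCAFG00000029569* (37597360 to 37598415, plus strand), was weaker, with group means of 4.15 FPKM in XX controls and 0.987 in XX DSD gonads at d37-39, and 5.92 and 2.63 at the older age.

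*C8orf82*, for which the assembly held only 294 bp (37946703 to 37946996, minus strand), had 54.0, 64.1 and 53.1 FPKM in XX controls of d44 and 14.6 to 30.6 in XX DSD gonads of d41-44. In XY gonads of that age it had 62.3, 50.6 and 76.1 FPKM in controls and 11.1, 28.2 and 42.7 in littermates. The littermates were widely spread, and the highest stayed below the lowest control. The changes were −1.28 and −1.25 in XX and −0.99 and −1.34 in XY, and the XY changes were not called.

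*SHISA3/U6* (39317712 to 39360859, plus strand) had the most negative change in XX gonads at d37-39. The 6 XX controls lay between 42.8 and 80.4 FPKM with a median of 55.24, and the 8 XX DSD libraries between 13.7 and 28.4 with a median of 16.8. At the older age XX controls held 46.7, 73.0 and 75.1 FPKM and XX DSD gonads 13.5 to 38.2. The groups did not overlap at either age, with changes of −1.60 and −1.59. Its level in XY gonads was low in both groups: 1.44 to 8.10 FPKM in controls and 1.12 to 2.69 in littermates of d37-39, and 1.09 to 2.96 and 0.781 to 1.51 at the older age, with changes of −0.52 and −0.53. The summed level of 6 pre-granulosa markers, genes of the supporting cells of the ovary (all 6 matched), moved with it in XX gonads, from 115 to 187 FPKM in controls against 65.2 to 120 in XX DSD gonads at d37-39 and from 210 to 220 against 83.5 to 118 at the older age. Across ages the sum did not follow *SHISA3/U6* in XX gonads. The d34 pool had a sum of 84.0 FPKM beside 337 FPKM of *SHISA3/U6*. In XX DSD gonads the median sums were 82.2 at d35 and 97.8 at d41-44, beside *SHISA3/U6* medians of 68.3 and 19.1. In XY gonads other than the d34 pool this sum was at most 24.7 FPKM. The part of such cells in the *SHISA3/U6* difference was not tested.

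**Figure D2:**
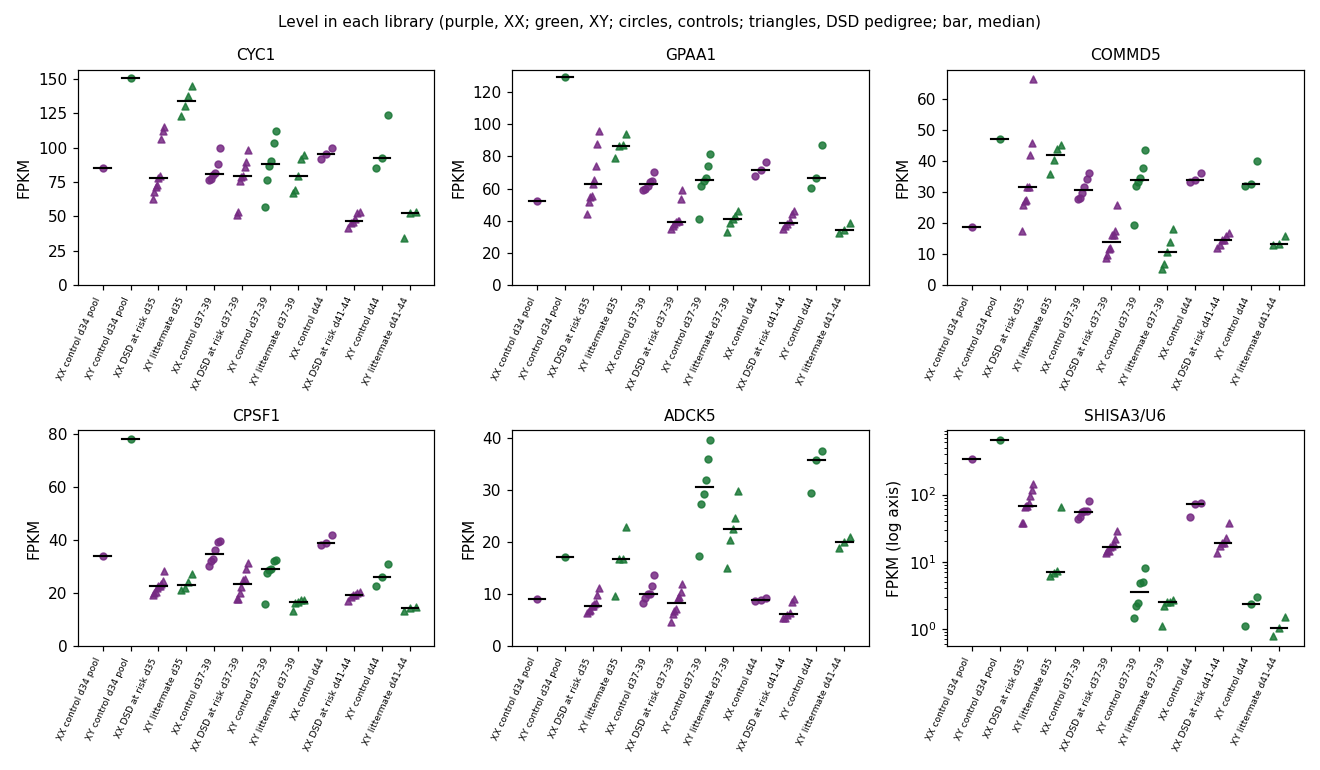
Level of 6 genes of the interval in every library (points, FPKM on the vertical axis, a log axis for SHISA3/U6) by group (horizontal axis), with the group median as a bar. XX is purple and XY green, circles are controls and triangles the DSD pedigree; COMMD5 at d41-44 lies between 11.8 and 16.8 in XX DSD gonads and at 33.3 and above in XX controls, and SHISA3/U6 at d37-39 and later lies at 8.10 and below in XY gonads and at 13.5 and above in XX gonads, while the d34 XY pool (644) and XY littermate replicate 1 of d35 (65.8) are high.

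Few genes of the interval were higher in the pedigree. *ENSCAFG00000001168*, a locus of 479 bp with 1 transcript in the first 5 Mb of the interval (32069992 to 32070470, plus strand), was called higher at d37-39 in XX and in XY gonads, with changes of 1.76 and 1.94. XX controls had 0.569 to 2.28 FPKM and XX DSD gonads 0 to 13.6, with 1 library at 0 and a median of 10.6. XY controls had 1.15 to 2.64 FPKM and XY littermates 3.48, 6.10, 9.82, 9.31 and 27.1. At d35 it had 7.15 to 23.3 FPKM in XX DSD gonads and 17.3 to 19.8 in XY littermates, and at d41-44 1.60 to 6.78 and 1.76 to 3.43, against 0.508 to 2.64 in XX and 1.03 to 2.01 in XY controls of d44. Levels above 3 FPKM were found in the pedigree alone. With libraries scaled to the same median the XX change was 1.85 and no longer called. Single libraries decided the d37-39 calls too. The XX call was lost without XX control replicate 1, and the XY call without XY control replicate 1.

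At d41-44, 4 genes were called higher in XX DSD gonads: *SLC30A9* (change 0.40), encoding a zinc transporter, *TMEM33* (0.31), of the endoplasmic reticulum, *ZNF252* (0.28), of the zinc finger family, and *CHRAC1* (0.25), a histone fold protein of chromatin remodelling. *SLC30A9* held 18.5, 19.1 and 19.1 FPKM in XX controls and 23.5 to 26.3 in XX DSD gonads, and 17.1, 19.6 and 24.5 in XY controls against 29.3, 32.7 and 31.7 in XY littermates. The groups did not overlap in either sex, though the XY change of 0.60 was not called. *TMEM33* had an XY change of 0.69, also without a call.

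The XY comparison used other embryos than the XX comparison, with XY controls and XY littermates that share the pedigree, litters and sequencing design of the XX groups. The interval was chosen for genes lower in the pedigree, so the direction in XY gonads is no independent evidence and the counts are a description. At d37-39, 6 of 85 genes were called lower and 1 higher (1.69% and 0.656% of annotated loci), and at d41-44 33 of 84 were called lower and 0 higher by limma (12.3% and 3.42%), with 4 higher at an unadjusted p under 0.05. Changes were negative in 74 of 85 and 71 of 84 genes. The median change was −0.49 and −0.69, against −0.00 and −0.05 over all annotated loci. Every XY littermate library lay below every XY control library for 9 of 85 genes at d37-39 (2.25% of annotated loci) and for 58 of 84 at d41-44 (30.9%).

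Stringent lower genes in XY gonads were *COMMD5*, *C8orf33* and *ENSCAFG00000029569* at d37-39 (1.05% of annotated loci), each stringent in XX gonads of that age too. At d41-44 they were 14 (3.97%): *PTP4A3*, a protein tyrosine phosphatase, *GPAA1*, and 12 that were also stringent in XX gonads of that age, namely *BAI1*, *GLI4*, *OPLAH*, *SHARPIN*, *CYC1*, *FBXL6/TMEM249*, *MFSD3*, *COMMD5* and 4 genes with an identifier alone. *ENSCAFG00000031437* had the largest change of any gene in both sexes at d41-44, −1.96 in XX and −2.32 in XY, from 9.77, 9.77 and 11.4 FPKM in XX controls to 1.15 to 2.79, and from 15.4 to 20.1 in XY controls to 2.00 to 3.69. Over the 4 comparisons 35 of the 85 genes were stringent lower at least once. With *ENSCAFG00000001168*, which was stringent higher in XX and in XY gonads at d37-39, 36 were stringent in either direction.

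The XY counts depended on single control libraries. Without replicate 6 of the XY controls of d37-39, 34 genes were called lower in place of 6 and 17 were stringent in place of 3, with a median change of −0.62. Without replicate 2 of the XY controls of d44 no gene was called lower or stringent, and without replicate 3 there were 38 and 25. With libraries scaled to the same median, 0 genes were called lower at d37-39 and 1 at d41-44 by limma, though the median change under that scaling was −0.86 and −0.63. With 1 value per litter 0 were called lower at d37-39, from 4 pedigree and 2 control litters. At d41-44 that comparison has 2 litters against 1 and says nothing about stability. The median XY change over the genes stayed between −0.62 and −0.43 at d37-39 and between −0.80 and −0.59 at d41-44 when any 1 library was left out.

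Gene by gene, the XX and XY changes went together: Pearson's r over the genes of the interval was 0.91 at d37-39 (85 genes) and 0.79 at d41-44 (84 genes), against 0.85 and 0.75 over 12305 and 12178 annotated loci. Genes share the libraries, so these are descriptions and genes are not replicates. In 71 genes at each age the change was negative in both sexes, and in 8 and 5 it was positive in both. The median absolute difference between the XX and the XY change was 0.11 and 0.17.

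The difference between a gene's XX and XY change was fitted as an interaction of sex and pedigree over the 4 groups of each age. It contains the changes on which the interval was chosen and is given as a description. It was called for 0 of 85 and 0 of 84 genes of the interval by limma, with 3 and 13 at an unadjusted p under 0.05, and for 1 and 18 annotated loci in the genome (0.00788% lower at d37-39, and 0.0873% lower and 0.0555% higher at d41-44). At d37-39 *SHISA3/U6* had a difference of −1.08 (SE 0.35) and at d41-44 of −1.06 (SE 0.43). Its ratios of pedigree to control mean were 0.32 and 0.332 in XX and 0.553 and 0.522 in XY gonads. *THEM6* had −1.23 at d41-44 (SE 0.39), from changes of −1.35 in XX and −0.12 in XY. These values do not show that the XX and XY changes were equal.

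**Figure D3:**
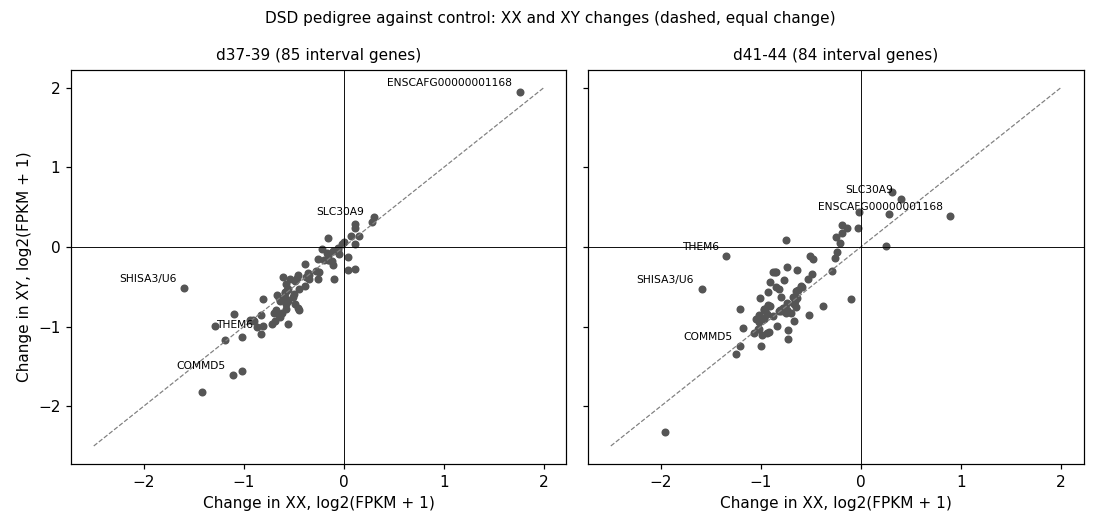
Change between DSD pedigree and control in XX gonads (horizontal axis) and in XY gonads (vertical axis), both log2(FPKM + 1), for each gene of the interval at d37-39 and d41-44. The dashed line marks equal change; 71 genes at each age lie below 0 on both axes, and SHISA3/U6 lies above the line with −1.60 in XX and −0.52 in XY at d37-39.

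The lower genes were not spread evenly along the interval. Of the 6 genes of the first 5 Mb, limma called 0 lower in either sex at d37-39 (0 in XX and 1 in XY gonads at an unadjusted p under 0.05), and at d41-44 it called 4 in XX and 1 in XY gonads. Of the last 5 Mb, 43 of 79 and 67 of 78 were called lower in XX gonads, and 6 of 79 and 32 of 78 in XY gonads. The shares over all annotated loci were 13% and 40.1% in XX and 1.69% and 12.3% in XY gonads. Median changes of the first 5 Mb were −0.03 and −0.37 in XX and 0.03 and −0.35 in XY gonads, and those of the last 5 Mb −0.51 and −0.80 in XX and −0.53 and −0.73 in XY gonads.

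Among the 6 genes of the first 5 Mb, *TRAPPC9*, of a complex of vesicle trafficking, had 15.7, 15.7 and 15.7 FPKM in XX controls of d44 and 8.69 to 10.9 in XX DSD gonads of d41-44. In XY gonads it had 16.6, 14.8 and 11.2 FPKM against 8.74, 8.79 and 8.41, so that both sexes stood apart with a change of −0.64 each, while at d37-39 the changes were 0.05 and −0.12. *ZFAT*, a zinc finger gene and the first of the interval (30649901 to 30842851, minus strand), had changes of −0.16 and −0.53 in XX and 0.11 and −0.40 in XY gonads. *KHDRBS3*, encoding an RNA-binding protein of splicing, had 0.11 and −0.21 in XX and 0.29 and 0.05 in XY gonads, and *COL22A1*, a collagen gene, −0.10 and −0.10 and −0.40 and −0.66. *ENSCAFG00000029044* had −0.11 and −0.64 in XX, and −0.05 and −0.29 in XY gonads.

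In steps of 2 Mb, the genes between 36 and 38 Mb had the lowest medians, −0.58 and −0.85 in XX and −0.64 and −0.78 in XY gonads, and all 55 tested at d37-39 and all 54 at d41-44 had a negative XX change. Between 38 and 40 Mb the medians of 18 genes were −0.23 and −0.48 in XX and −0.30 and −0.23 in XY gonads, and between 34 and 36 Mb those of 7 genes −0.06 and −0.64 in XX and −0.21 and −0.50 in XY gonads. The annotated loci of CFA13 outside the interval had medians of 0.12 and 0.20 in XX and 0.14 and 0.22 in XY gonads, and 5, 14, 0 and 7 of them were called lower in XX at d37-39, XX at d41-44, XY at d37-39 and XY at d41-44.

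By role, RNA, chromatin and transcription genes were the most numerous, with 20 members, of which 7 and 18 were called lower in XX gonads at d37-39 and d41-44, and 0 and 8 in XY gonads (median change −0.37, −0.73, −0.39 and −0.66). Over all annotated loci 13%, 40.1%, 1.69% and 12.3% were called lower in these 4 comparisons. Besides *CPSF1* they include *PUF60* of splicing, *EXOSC4* of the RNA exosome, *HSF1*, the heat shock transcription factor, and several zinc finger genes. The list also counts *SHARPIN*, described above by its complex that builds linear ubiquitin chains. *HSF1* had changes of −0.26 and −0.88 in XX gonads, and *AGO2*, of RNA silencing, 0.11 and −0.25.

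Both translation genes were called lower in XX gonads at both ages (13% and 40.1% of annotated loci). *RPL8* held 1901, 1938 and 1911 FPKM in XX controls of d44 and 1030 to 1225 in XX DSD gonads of d41-44, and 1776, 1349 and 1235 in XY controls against 820, 836 and 810.5 in XY littermates. *EEF1D* held 793, 735 and 747 FPKM in the XX controls and 433 to 551 in XX DSD gonads. Changes were −0.80 for *RPL8* in both sexes and −0.68 and −0.63 for *EEF1D*, and the groups of both genes stood apart in XX.

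Of 9 metabolic and mitochondrial genes 5 and 8 were called lower in XX and 0 and 6 in XY gonads (13%, 40.1%, 1.69% and 12.3% of annotated loci, medians −0.56, −0.84, −0.64 and −0.79), and every change was negative. With *CYC1* and *GPAA1* they include *OPLAH*, 5-oxoprolinase of the glutathione cycle (−0.56 and −1.02 in XX), *GPT* (−1.10 and −0.85 in XX), *DGAT1*, which makes triglyceride, and *NAPRT1* of NAD synthesis. Of 9 polarity, cytoskeleton and adhesion genes, such as *SCRIB* of apical-basal polarity and *PLEC*, a linker of intermediate filaments, 6 and 8 were called lower in XX and 0 and 2 in XY gonads. Of 8 membrane traffic and transport genes 5 and 8 were called lower in XX and 2 and 4 in XY gonads, and of 10 signalling and surface protein genes 6 and 8 in XX and 2 and 3 in XY gonads. The group of DNA replication and repair held 2 assembled loci, *TONSL/VPS28* and *LRRC24/RECQL4*, of which 1 and 2 were called lower in XX and 0 and 1 in XY gonads. *TONSL/VPS28* is counted among the membrane traffic and transport genes as well.

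The last 6 genes of the interval, from *LIMCH1* to *ATP8A1*, whose human counterparts are neighbours away from those of the main block, included 1 with a negative change in XX gonads of d37-39 and 4 at d41-44. Of these 6, limma called 1 and 2 lower in XX (13% and 40.1% of annotated loci) and 0 in XY gonads at both ages (1.69% and 12.3%). At d41-44 it called 2 higher in XX gonads (25.6% of annotated loci). The median changes of the 6 genes were 0.13 and −0.11 in XX and 0.18 and 0.26 in XY gonads. *SHISA3/U6*, *SLC30A9* and *TMEM33* belong to them, as does *ATP8A1*, a phospholipid flippase and the last gene of the interval (39364250 to 39588887, minus strand), with changes of 0.11 and −0.03 in XX gonads. *HYKK*, *IREB2*, which encodes an iron-regulatory RNA-binding protein, and *WFS1*, of the endoplasmic reticulum, are not in that list although their human counterparts lie outside the main block too. Their XX changes were −0.28 and −0.51, −0.02 and −0.19, and −0.46 and −0.77, and all 3 were called lower at d41-44 (40.1% of annotated loci). Of the 20 genes in no role list 10 and 16 were called lower in XX (13% and 40.1%) and 2 and 8 in XY gonads (1.69% and 12.3%).

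The genes that moved most like the interval as a whole were found by Pearson's r of each gene with the median over the genes, across all 55 libraries. They were *ENSCAFG00000001540/ENSCAFG00000032656* (0.96), *RHPN1* (0.93) and *CPSF1* (0.93), and those least like it were *SLC30A9* (−0.83), *ZNF252* (−0.51) and *CHRAC1* (−0.49), each of which is itself part of the median.

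The median over the 85 genes, as the deviation of log2(FPKM + 1) from the mean of all libraries, was taken for every library. At d37-39 it was 0.18 to 0.43 in XX controls and −0.38 to 0.12 in XX DSD gonads, and −0.31 to 0.44 in XY controls and −0.37 to −0.20 in XY littermates. At the older age it was 0.38 to 0.44 against −0.40 to −0.25 in XX, and −0.00 to 0.36 against −0.47 to −0.35 in XY gonads. Pedigree and control libraries were apart in 3 of these 4 comparisons, and in the XY gonads of d37-39 only control replicate 6, at −0.31, lay among the littermates, with the next lowest control at 0.16. At d35 the XX DSD gonads lay between −0.32 and 0.27 and the XY littermates between −0.01 and 0.13. The d34 pools had 0.20 (XX) and 0.95 (XY).

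**Figure D4:**
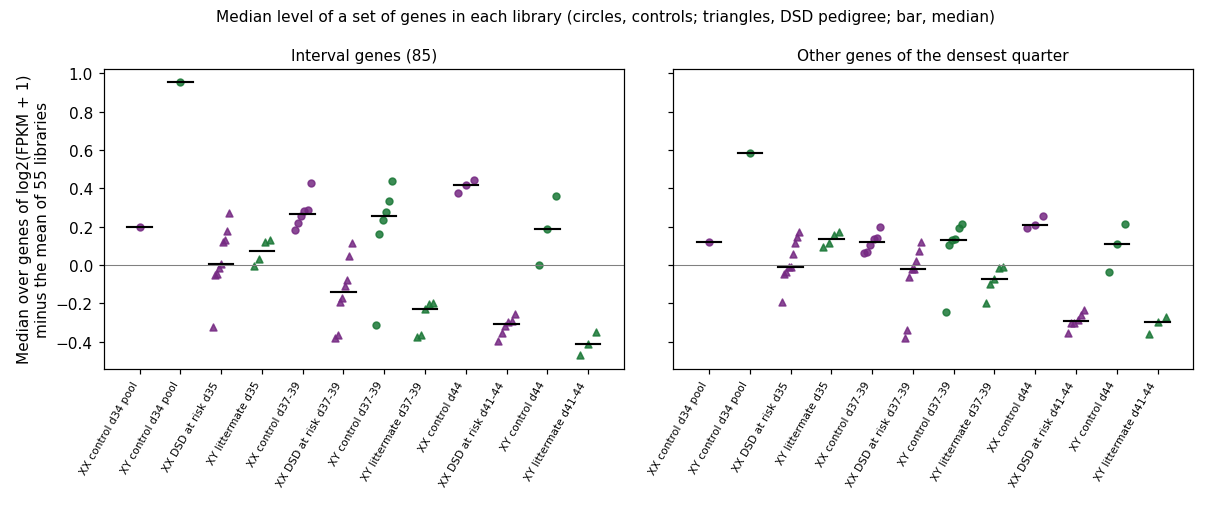
Median over the 85 genes of the interval (left) and over the 3261 other annotated loci in the densest 25% of the genome (right) in every library, as log2(FPKM + 1) minus the mean of 55 libraries (vertical axis), by group (horizontal axis), with group medians as bars. Circles are controls and triangles the DSD pedigree; at d41-44 the interval genes lie between −0.40 and −0.25 in XX DSD gonads and between 0.38 and 0.44 in XX controls, and the other dense genes between −0.35 and −0.23 and between 0.19 and 0.25.

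Genes in crowded regions elsewhere in the genome were lower in the pedigree too. Over all annotated loci outside the interval, those with 46 or more annotated loci within 1 Mb (the densest 25%) had median changes of −0.19 and −0.55 in XX and −0.17 and −0.45 in XY gonads, and 22.8%, 73.1%, 2.65% and 26.1% of them were called lower in XX at d37-39, XX at d41-44, XY at d37-39 and XY at d41-44. The 66 genes of the interval in that class of density had medians of −0.56 and −0.82 in XX and −0.59 and −0.77 in XY gonads, and 38 and 59 were called lower in XX and 4 and 31 in XY gonads. The 19 genes of the interval in less dense surroundings had medians of 0.04 and −0.26 in XX and −0.05 and −0.29 in XY gonads.

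When each library was centred on loci of like density (20 bins), the median changes of the interval were −0.34 and −0.46 in XX and −0.41 and −0.51 in XY gonads. Then 35 and 65 genes were called lower in XX and 5 and 16 in XY gonads, and 4 and 6 were stringent in XX and 3 and 4 in XY gonads. The shares of all annotated loci called after this centring were not counted, so these counts cannot be set against the genome. Within the interval Spearman's rho of the change with density, over genes that share libraries and neighbours, was −0.28 and −0.38 in XX and −0.30 and −0.44 in XY gonads, and over all annotated loci −0.37, −0.49, −0.35 and −0.47. The part of gene density, or of what goes with it, in the changes was not tested.

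**Figure D5:**
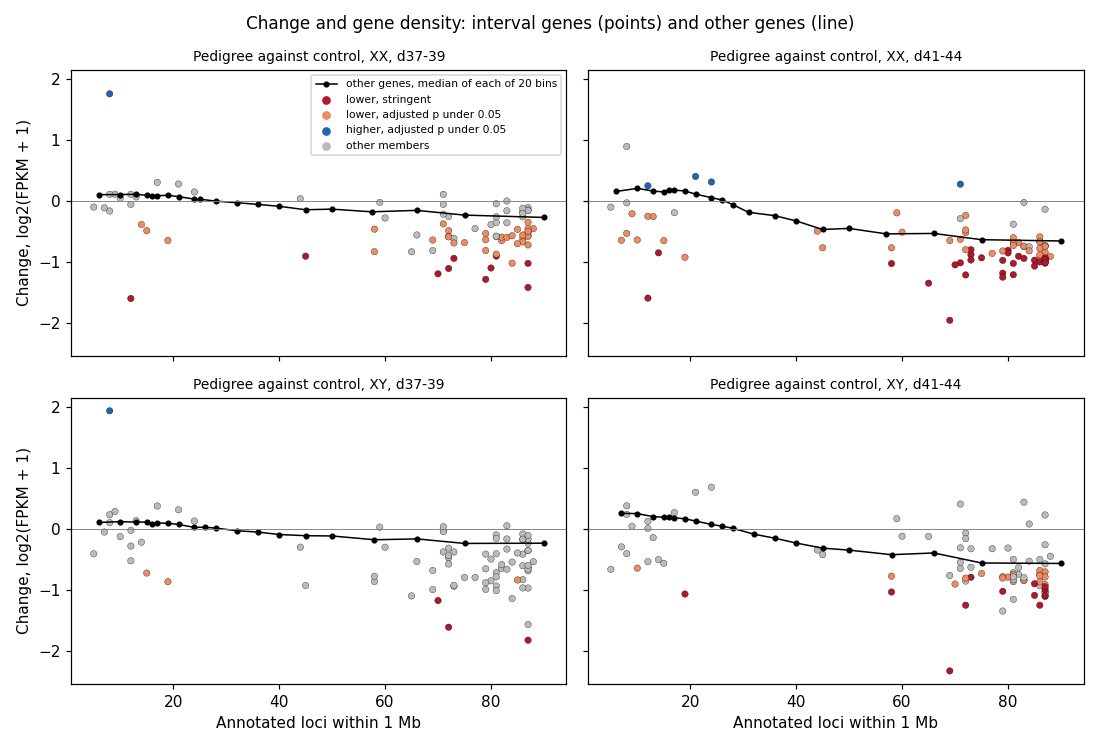
Change between DSD pedigree and control, log2(FPKM + 1) (vertical axis), against the number of annotated loci within 1 Mb (horizontal axis), for the genes of the interval (points, coloured as in the plot by place) and for other annotated loci as the median of each of 20 bins (black line). The line falls with density in all 4 panels, and the points of the interval above 46 loci have medians of −0.56, −0.82, −0.59 and −0.77.

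Depth moved with these medians at the older age. Over all ages, of the 17 libraries with a relative depth under 0.3, 13 had a median over the genes below 0, and of the 38 deeper libraries 14 did. The 13 included all 9 pedigree libraries of d41-44, so that no comparison within like depth was possible at that age. Of the other shallow libraries, those below 0 were 1 of 2 XY controls, both XX DSD gonads and the 1 XY littermate, all of d37-39. The XY pool of d34, 1 XX DSD gonad of d35 and 1 XX control of d37-39 were above 0. At d37-39 the libraries with a relative depth of at least 0.3 lay between 0.22 and 0.43 in 5 XX controls and between −0.19 and 0.12 in 6 XX DSD gonads, and between 0.23 and 0.44 in 4 XY controls and between −0.37 and −0.20 in 4 XY littermates. With these libraries alone 37 genes were called lower and 11 stringent in XX (median −0.41), and 27 and 14 in XY gonads (median −0.65). The shares of all annotated loci called with these libraries were not counted. Some shallow libraries were high, with 0.95 in the XY pool of d34 (relative depth 0.152) and 0.16 in XY control replicate 3 of d37-39 (0.172). The part of depth in the changes of d41-44 was not tested.

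The contrast of the sexes was not used in choosing the interval, though from d37-39 on its libraries are those of the pedigree comparisons. The effect of the choice on the sex differences was not tested. Between XX and XY controls, 11 genes were higher in XX and 4 lower at d37-39 (17.7% and 19.4% of annotated loci), and 18 were higher and 3 lower at d44 (16.6% and 15.5%). Between XX DSD at risk and XY littermates, 7 were higher and 9 lower at d35 (9.25% and 16.2%), 7 and 4 at d37-39 (9.26% and 11.2%), and 12 and 5 at d41-44 (17.4% and 21%). Compared within litters, with litter as a fixed block, the d35 calls numbered 2 in place of 16, and those of controls at d37-39, and of the pedigree at d37-39 and d41-44, numbered 15, 15 and 13.

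*SHISA3/U6* was the gene with the largest sex difference, higher in XX gonads at every age tested. In controls it was 14.1-fold higher in XX at d37-39 (56.3 ± 13.1 against 3.99 ± 2.48 FPKM, SD, 6 embryos each, difference 3.64, SE 0.29, adjusted p = 1.0e-06) and 30.6-fold higher at d44 (64.9 ± 15.8 against 2.12 ± 0.948, SD, 3 embryos each, difference 4.42, SE 0.29, adjusted p = 0.00025). Within the pedigree XX DSD gonads exceeded XY littermates by 2.46 at d35 (adjusted p = 0.0052), 2.56 at d37-39 (adjusted p = 5.0e-07) and 3.36 at d41-44 (adjusted p = 3.2e-05). At d35, 3 of 4 XY littermates had 6.84, 6.21 and 7.36 FPKM and replicate 1 had 65.8, within the XX range of 37.2 to 146. With 1 value per litter the d35 difference was 1.67 and within litters 1.30, and neither was called (adjusted p = 0.299 and 0.0698). XY littermate replicate 1 also had the highest pre-granulosa sum of its group, 24.7 FPKM against a group median of 12.9. The d34 pools held 337 FPKM (XX) and 644 FPKM (XY), above every later library.

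*ADCK5*, of a family of atypical kinases linked to mitochondria (37800517 to 37817256, plus strand), went the other way and was higher in XY gonads at every age. In controls it had 8.28 to 13.7 FPKM in XX and 17.3 to 39.8 in XY gonads at d37-39 (difference −1.42, SE 0.18, adjusted p = 5.2e-05), and 9.26, 8.65 and 8.75 against 35.8, 37.5 and 29.5 at d44 (difference −1.83, SE 0.11, adjusted p = 0.00015). Within the pedigree the differences were −0.91 at d35 (adjusted p = 0.0033), −1.37 at d37-39 (adjusted p = 0.00046) and −1.47 at d41-44 (adjusted p = 0.0002). The d35 difference was not called with 1 value per litter (adjusted p = 0.149) or within litters (adjusted p = 0.121), nor that of d37-39 with libraries scaled to the same median (−0.57, adjusted p = 0.374). The locus overlaps *CPSF1*, *SHARPIN* and *TONSL/VPS28* on the opposite strand. In controls *CPSF1* had differences of 0.36 and 0.58, called at d44 (adjusted p = 0.019), *SHARPIN* 0.13 and 0.18, and *TONSL/VPS28* −0.22 and −0.39, in the direction of *ADCK5* and without a call.

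*OPLAH* was higher in XX gonads in all 5 comparisons, with 11.5 to 14.2 FPKM in XX and 2.33 to 8.45 in XY controls at d37-39 (difference 1.12, adjusted p = 0.001), and 14.7, 15.4 and 14.3 against 7.49, 5.81 and 5.29 at d44 (difference 1.14, adjusted p = 0.0016). Its d35 difference was 0.58 and not called with 1 value per litter (adjusted p = 0.14). *LY6H*, of the LY6 family of GPI-anchored proteins, was also higher in XX gonads in all 5, by 1.32 and 1.03 in controls (adjusted p = 0.00044 and 0.012). *THEM6* was higher in XX controls at both ages, by 0.79 (adjusted p = 0.027) and 1.99 (adjusted p = 0.0013), with 12.3, 14.7 and 11.8 FPKM against 2.72, 1.60 and 3.37 at d44. *BEND4*, a gene of weak expression, was higher in XX controls by 0.54 (adjusted p = 0.0094) and 0.72 (adjusted p = 0.037). The calls of *THEM6* at d37-39 and of *BEND4* at both ages were lost under scaling to the same median (adjusted p = 0.0707, 0.205 and 0.262), as was that of *LY6H* at d44 (adjusted p = 0.0842). With 1 value per litter the d37-39 calls of *THEM6*, *LY6H* and *BEND4* were lost too (adjusted p = 0.0935, 0.0635 and 0.181). In the pedigree the *LY6H* calls of d35 and d37-39 were lost with 1 value per litter (adjusted p = 0.215 and 0.0896) and that of d35 within litters (adjusted p = 0.0664). With no filter on low values the *LY6H* calls of d35 (adjusted p = 0.12) and of d44 controls (adjusted p = 0.0543), the *THEM6* call of d37-39 (adjusted p = 0.0801) and the *BEND4* call of d44 (adjusted p = 0.0902) were lost. With d39 embryos alone the d37-39 calls of *THEM6* and *BEND4* were lost (adjusted p = 0.212 and 0.178). Without libraries of relative depth under 0.3 that of *THEM6* was lost as well (adjusted p = 0.0806). Single libraries decided some of these calls. That of *THEM6* at d37-39 was lost without XX control replicate 3, 5 or 6 or XY control replicate 1, 3 or 6 (adjusted p from 0.0516 to 0.0642), and that of *BEND4* at d44 without any XX control or without XY control replicate 2 (from 0.0828 to 0.127). That of *LY6H* was lost without XX control replicate 2 at d44 (adjusted p = 0.0515), without XY littermate replicate 2, 3 or 4 at d35 (from 0.0926 to 0.0937) and without XY littermate replicate 1, 3 or 4 at d37-39 (from 0.0591 to 0.0631). For these 4 genes the XX and XY control libraries did not overlap at d44, with 3 libraries a sex. The same held for 30 of 84 genes of the interval that were higher in XX and 5 that were lower. Over all annotated loci 24.6% stood apart lower in XX, and the share that stood apart higher was not counted.

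At d34, before the ages compared, each sex was 1 pooled library and no test was made. Of the genes shown by library, *CYC1* had 85.1 FPKM in the XX and 151 in the XY pool, *GPAA1* 52.0 and 129, *COMMD5* 18.6 and 47.0, *CPSF1* 33.9 and 78.2, and *SHARPIN* 44.6 and 93.7. *C8orf82* was closer, with 23.6 and 27.3. The XY pool was the shallowest library, and dense genes outside the interval were high in it too, with a median deviation of 0.59 against 0.12 in the XX pool.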

How the data were processed

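RNA of embryonic gonads was sequenced by the authors from TruSeq RNA v2 libraries, which do not mark strand. Per the labels and the study's methods, the authors trimmed reads with cutadapt (1.5 in the submitters' processing notes, where the study's methods name another version), aligned them to CanFam3 with TopHat2 2.0.13, assembled transcripts guided by the annotation with Cufflinks 2.2.1, and deposited the FPKM of 58781 loci as normalised by Cuffnorm. Genes were the assembled loci on chromosome 13 with a midpoint from 30000000 to 39999999 that held an annotated transcript and had a mean of at least 1 FPKM. The genes, the lists and the tests were chosen with earlier results of these data known.

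Groups were compared on log2(FPKM + 1) with limma 3.58.1 (moderated test with a mean trend, two-sided) in R 4.3.3, using the libraries of the groups compared. Loci whose mean reached 1 FPKM in one of the groups were tested, and p-values were adjusted by Benjamini-Hochberg over all loci tested. A gene was called at an adjusted p under 0.05, and was stringent if the group means also differed at least 2-fold with one mean at or above 4 FPKM. Shares of annotated loci refer to those of mean FPKM of at least 1. An interaction of sex and pedigree gave the difference between XX and XY changes. Litters were taken from the study's lists. The scripts were tested on simulated data. Replicates were embryos, numbered in accession order, and embryos of a litter are not independent, so a litter block and 1 value per litter were tried. The day labelled for each embryo was used, although the study's lists place 3 of the embryos labelled d41 at another day. Read counts were not used, so precision is given by the spread between embryos, and relative depth was estimated from the smallest steps of FPKM below 0.15 (for 45 libraries 3 such estimates lay within 0.05 on the log2 scale).

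Named genes were every stringent gene, the 8 of highest mean among them by library, up to 5 genes called higher a comparison, up to 6 with the largest ratio between control sexes at both ages, those nearest the threshold of 1 FPKM, the first and last, and the 3 highest and lowest changes in each part of the interval. Other genes named as examples of role lists, the d34 values and *RPL8* and *EEF1D* were chosen after their values were seen. Alternatives were other pseudocounts, filters, scalings, centring on gene density, limma without trend, litter terms, subsets of days, and leaving out each library. The choices to test annotated loci alone, to compare XX with XY gonads within litters (litter as a fixed block), and to leave out libraries of relative depth under 0.3 were made after seeing the data. The authors' own comparison columns were not used.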

Additional observations from a re-analysis of the deposited data

Results flagged for a closer look

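In groups of 4 to 10 libraries, the highest or lowest library was compared with its nearest neighbour, relative to the range of the group (Dixon's 95% critical value), for the genes given by library and for the median over the 85 genes. Chance alone would mark about 1 in 20 groups, and 5 of 63 were marked.

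*SHISA3/U6* stood apart high in XY littermate replicate 1 of d35, with 65.8 FPKM where the next library had 7.36. It also stood apart high in XX DSD at risk replicate 4 of d41-44, with 38.2 FPKM against 22.4 in the next library. *CPSF1* was low in XY control replicate 6 of d37-39, with 15.9 FPKM against 27.4, and in XY littermate replicate 3 of d37-39, with 13.3 FPKM against 16.2. The median over the 85 genes was low in XY control replicate 6 of d37-39 as well, at −0.314 against 0.159 in the next library, and the relative depth of that library was 0.257.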

How the results depend on the processing

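No direction was reversed under the alternatives for the median change over the genes, the stringent genes, the genes called higher or the genes named for sex differences. Changes of other single genes and the differences between XX and XY changes were not checked. With the interval split at 36 Mb, the XY median of the first part at d37-39 turned from 0.03 to −0.08. Counts of called genes moved by over 1.5 times as follows, with genes called lower given before stringent genes where both moved, and the causes were not tested. With 1 value per litter, limma called 0 lower and 0 stringent in XX at d37-39, in XY at d37-39 and in XY at d41-44 (there 2 litters against 1, the lone control litter assumed to vary like the others, so that this count says nothing about stability), and sex differences numbered 3 in controls of d37-39, 1 in the pedigree at d35 and 4 at d37-39. With litter as a fixed block, 2 sex differences were called in the pedigree at d35. With litter as a random block, 23 were lower in XX at d37-39, 0 and 0 in XY at d37-39, and 53 lower in XY at d41-44. Scaled to the same median, which shifted the median of all loci by 0.17, 0.29, −0.33 and 0.08 in the XX and then the XY comparisons, 6 and 3 remained in number in XX at d37-39, 4 were stringent in XX at d41-44, and XY counts were 0 and 0 at d37-39 and 1 and 1 at d41-44, with 6 sex differences in controls of d37-39, 6 at d44 and 6 in the pedigree at d37-39. Centred on gene density, stringent genes were 4 in XX at d37-39, 6 in XX at d41-44 and 4 in XY at d41-44, where 16 were lower. With d39 embryos alone, 27 were lower in XX and 0 and 0 in XY, with 6 sex differences in controls. Without embryos labelled d41, XY counts at d41-44 were 1 and 1. In XY gonads at d37-39 the counts were 16 and 7 with a pseudocount of 0.01, 13 and 5 with 0.1, 0 and 0 with no filter, 0 and 0 without the trend, 26 and 8 over annotated loci alone, 27 and 14 without libraries of relative depth under 0.3, and 11 lower when a mean of 4 FPKM was required. In XY gonads at d41-44 they were 0 and 0 with no filter, 1 and 1 without the trend, and 50 lower over annotated loci alone. Sex differences with no filter were 8 at d35 and 12 in controls of d44, and without the trend 7 in the pedigree at d37-39.

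Leaving out 1 library at a time gave 33 to 47 lower and 9 to 14 stringent in XX at d37-39, 66 to 72 and 24 to 31 in XX at d41-44, 0 to 34 and 0 to 17 in XY at d37-39, and 0 to 38 and 0 to 25 in XY at d41-44. Sex differences ran from 12 to 25 and 12 to 31 in controls of d37-39 and d44, and from 7 to 23, 7 to 12 and 14 to 22 in the pedigree at d35, d37-39 and d41-44. Calls for a different change in XX and XY gonads stayed at 0. Shares of annotated loci were counted under the main settings only, so counts under the alternatives have no share beside them.

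No paired analysis was possible because the labels carry no replicate numbers shared between groups, where pairing would be by number. Litters shared by XX and XY embryos were compared as the fixed and random blocks above, except for d44 controls, all of 1 litter, where a fixed block has no effect. Centring on GC content was not run, since no sequence was at hand. The table of annotated genes was compared for the genes named by identifier alone and only where they were stringent, and none of these 15 calls changed. Depth limits the older comparison, in which all 9 pedigree libraries were shallow, and with 3 XY embryos a group 1 library decided the count.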

Other observations

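The assembly also placed loci without an annotated transcript in the interval, and these were tested apart from the 85 genes. In XX gonads 2 of 43 were called lower at d37-39 and 6 of 27 at d41-44, where 3.32% and 9.68% of such loci in the genome were called lower. In XY gonads the counts were 0 of 64 by limma and 2 of 17, where 0.516% and 2.2% were. Their median changes were 0.35 and 0.06 in XX and 1.25 and −0.37 in XY gonads, and those of all such loci 0.44, −0.00, 1.29 and −0.00. The annotated genes around them had medians of −0.49, −0.77, −0.49 and −0.69, and the difference between the annotated and the other loci was not tested.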
